A study of Mus musculus with 8 samples.

Results

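The glucocorticoid receptor gene Nr3c1 and 8 genes that glucocorticoids are known to induce (Sgk1, Tsc22d3, Fkbp5, Klf9, Zbtb16, Errfi1, Cebpd and Ddit4) were followed in RNA-seq of mouse melanoma tumours. They are 9 of the 34745 genes listed in each library and were found by gene symbol. The set was chosen by the measured Sgk1 difference: Sgk1 was among the genes called lower in tumours of the high cholesterol diet group in these same data, and the other 8 were added as the receptor and its textbook targets. The difference between diets is therefore part of how the set was chosen, and its values for the 9 genes are given as a description. The tumours grew from B16F10 cells, a single established mouse melanoma line kept in DMEM with FBS and then injected subcutaneously into C57BL/6J mice. Libraries ND 1 to ND 4 are tumours of mice on a normal diet (ND), and HCD 1 to HCD 4 those of mice on a high cholesterol diet (HCD). Neither the age of the mice nor the length of feeding is given in the labels, and no glucocorticoid or other agent is named for either group. The labels do not say whether each library came from a separate mouse, so p-values measure only how these samples spread, and that spread may be technical.

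Glucocorticoids such as corticosterone cross the cell membrane and bind the receptor, which is held in the cytoplasm by HSP90 and its partner proteins. The bound receptor enters the nucleus and binds DNA as a dimer at glucocorticoid response elements, palindromes with a short spacer. It switches on genes that feed back on its own activity, restrain growth factor and mTORC1 signalling and dampen inflammation, and it lowers the transcription of many cytokine genes.

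SGK1 is a kinase induced by serum, glucocorticoids and cell stress, and a response element near its start site is a classical target of the receptor. The 250 bases before annotated start sites were read from RefSeq (GRCm38.p6, the assembly family of mm10). For the set, 14 windows of 6 of the 9 genes were searched. Windows of Nr3c1, Zbtb16 and Cebpd were not among the 14, so these windows say nothing about motifs before those genes. The palindrome searched was AGAACA, any 3 bases, then TGTTCT, together with its core ACANNNTGT, a single arm AGAACA, and the E-box CACGTG, to which clock and MYC family proteins bind. Each was searched on both strands, and the core and the arms lie within the palindrome. The palindrome was found in 3 of 32851 windows of all genes (0.00913%), and 1 of these lay before a start site of Sgk1. The windows of Sgk1 and Fkbp5 and 30 bases before a start site of Tsc22d3 are shown because they hold, or lack, these letters in the gene whose fold change between diets was farthest from 0 (Sgk1), the gene next to it in that order (Tsc22d3) and the gene closest to 0 (Fkbp5). Capitals mark the palindrome and single arms, which read TGTTCT when they lie on the other strand.
Sgk1, chr10:21993640-21993889, plus strand: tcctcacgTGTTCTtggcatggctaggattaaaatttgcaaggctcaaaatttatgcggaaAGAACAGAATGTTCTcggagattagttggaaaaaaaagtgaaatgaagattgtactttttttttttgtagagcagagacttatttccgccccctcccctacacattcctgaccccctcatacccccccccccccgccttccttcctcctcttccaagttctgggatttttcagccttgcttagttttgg
Sgk1, chr10:21994416-21994665, plus strand: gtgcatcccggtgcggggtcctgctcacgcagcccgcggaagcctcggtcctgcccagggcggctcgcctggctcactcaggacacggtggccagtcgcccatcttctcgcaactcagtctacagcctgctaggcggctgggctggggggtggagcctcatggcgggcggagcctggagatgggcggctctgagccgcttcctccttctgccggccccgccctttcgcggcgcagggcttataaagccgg
Fkbp5, chr17:28486150-28486399, minus strand: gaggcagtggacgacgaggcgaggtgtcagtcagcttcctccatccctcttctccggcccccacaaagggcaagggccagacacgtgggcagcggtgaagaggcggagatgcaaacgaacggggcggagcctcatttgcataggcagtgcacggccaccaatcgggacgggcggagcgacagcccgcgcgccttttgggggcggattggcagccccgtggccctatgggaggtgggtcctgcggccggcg
Tsc22d3, chrX:140600690-140600719, minus strand: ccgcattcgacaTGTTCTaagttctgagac
The Sgk1 palindrome lay at chromosome 10, 21993701 to 21993715, which is 175 to 189 bases before the start site at 21993890 and 951 to 965 bases before the most downstream start site at 21994666. The same window held a further single arm at 21993648 to 21993653 that overlapped an E-box at 21993644 to 21993649. Sgk1 supplied 6 of the 14 windows, more than any other of the 6 genes searched, which gives it more room for a match. The core was found in 2 of the 14 windows, both of Sgk1, and in 5.84% of all windows. A single arm was found in 4 of the 14 windows (3 of Sgk1 and 1 of Tsc22d3) and in 16.1% of all windows. The windows of Ddit4, Klf9 and Errfi1, which are not shown, held 0 palindromes and 0 single arms. The E-box was found in 2 of the 14 windows (Sgk1 and Fkbp5) and in 6.02% of all. These are letter matches in short windows, and response elements farther away were not searched. The windows shown were picked by the diet difference that also chose the set. Nothing is therefore read from matches set beside fold changes. The other palindromes lay before Acnat2, at a mean of 0.0154 CPM in ND and listed at 0 in all HCD libraries, and before Gm35041, which was not matched to a gene in the count files.

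**Figure D1:**
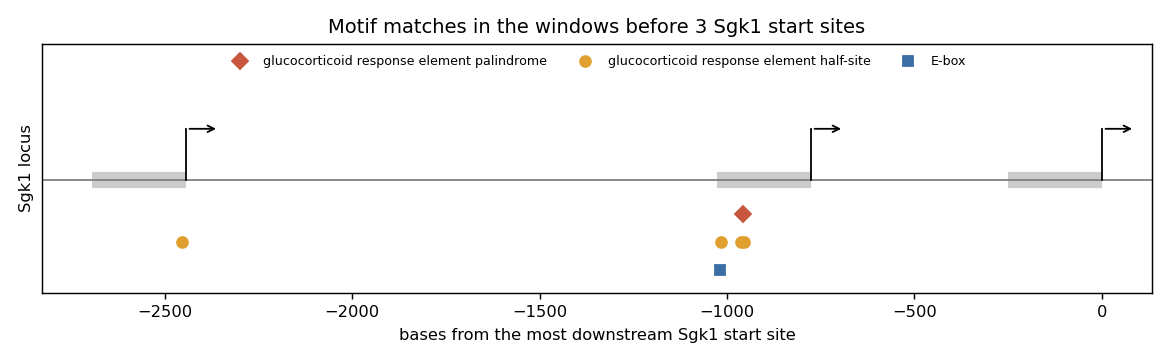
Motif matches before the 3 most downstream of the 6 Sgk1 start sites in RefSeq, with the distance from the last start site in bases on the horizontal axis. Arrows mark start sites, grey bars the 250-base windows searched, and symbols the matches: the palindrome sits 951 to 965 bases before the last start site.

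Total counts ran from 14599222 to 17722093 per library, and HCD was compared with ND over 13186 genes with edgeR's quasi-likelihood test (TMM factors, Benjamini-Hochberg adjustment, threshold 0.05). CPM are counts scaled to library size with TMM factors, and values after ± are SD with n = 4 per group. ND 2, ND 3 and ND 4 had counts on 406 to 427 olfactory and vomeronasal receptor genes, against 8 to 13 genes in ND 1 and the HCD libraries, so a fit with a term for these 3 libraries was also made. In that fit the diet contrast of every gene compares HCD with ND 1 alone. It rests on that lone ND library and does not correct the comparison of all libraries. Mitochondrially encoded genes took 13.7 to 14.7% of counts in ND and 11.4 to 12.9% in HCD. Melanoma markers were high in every library, at a sum over 8 genes of 27070 to 31400 CPM. Among them Mitf, the melanocyte transcription factor, rose from 251 ± 34.3 to 453 ± 51.3 CPM without overlap (log2 fold change 0.85, SE 0.112, edgeR adjusted p = 0.0459). That call was lost without any 1 library other than ND 2 (0.0581 to 0.138), on log2(FPKM + 0.1) (0.0554), with the replicate block (0.106) and with the term (0.339). Because these are pieces of tumour, fewer cells of a type and less RNA per cell cannot be told apart for any gene below.

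Among the 9 genes, Sgk1 was the only one whose ND and HCD libraries did not overlap. Its level in HCD was 0.538 times that in ND. Tsc22d3 and Ddit4 had lower means in HCD with overlapping libraries, Nr3c1 had a higher one, and Fkbp5 was nearly level. Of the 8 genes tested, 1 was called (Sgk1, lower), against 0.182% of all genes tested, 0.114% lower and 0.0683% higher. DESeq2 and limma-voom also called Sgk1 alone among them, in tests that called 3.55% of all genes with DESeq2 (1.98% lower, 1.56% higher) and 0.144% with limma-voom (0.0834% lower, 0.0607% higher). Since Sgk1 was picked for its call, nothing is read from these counts. Of the 7 others 0 were called by edgeR, DESeq2 or limma-voom, and 2 (Tsc22d3 and Ddit4) had an unadjusted p under 0.05 in edgeR, where 14.7% of all genes did. Groups did not overlap for 1 of the 9 genes (Sgk1) and for 9.67% of all genes tested (4.73% with HCD lower), from which again nothing is read. The median log2 fold change was -0.18 over the 8 tested genes and -0.15 over the 7 without Sgk1, beside 0.0049 over all genes tested.

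**Figure D2:**
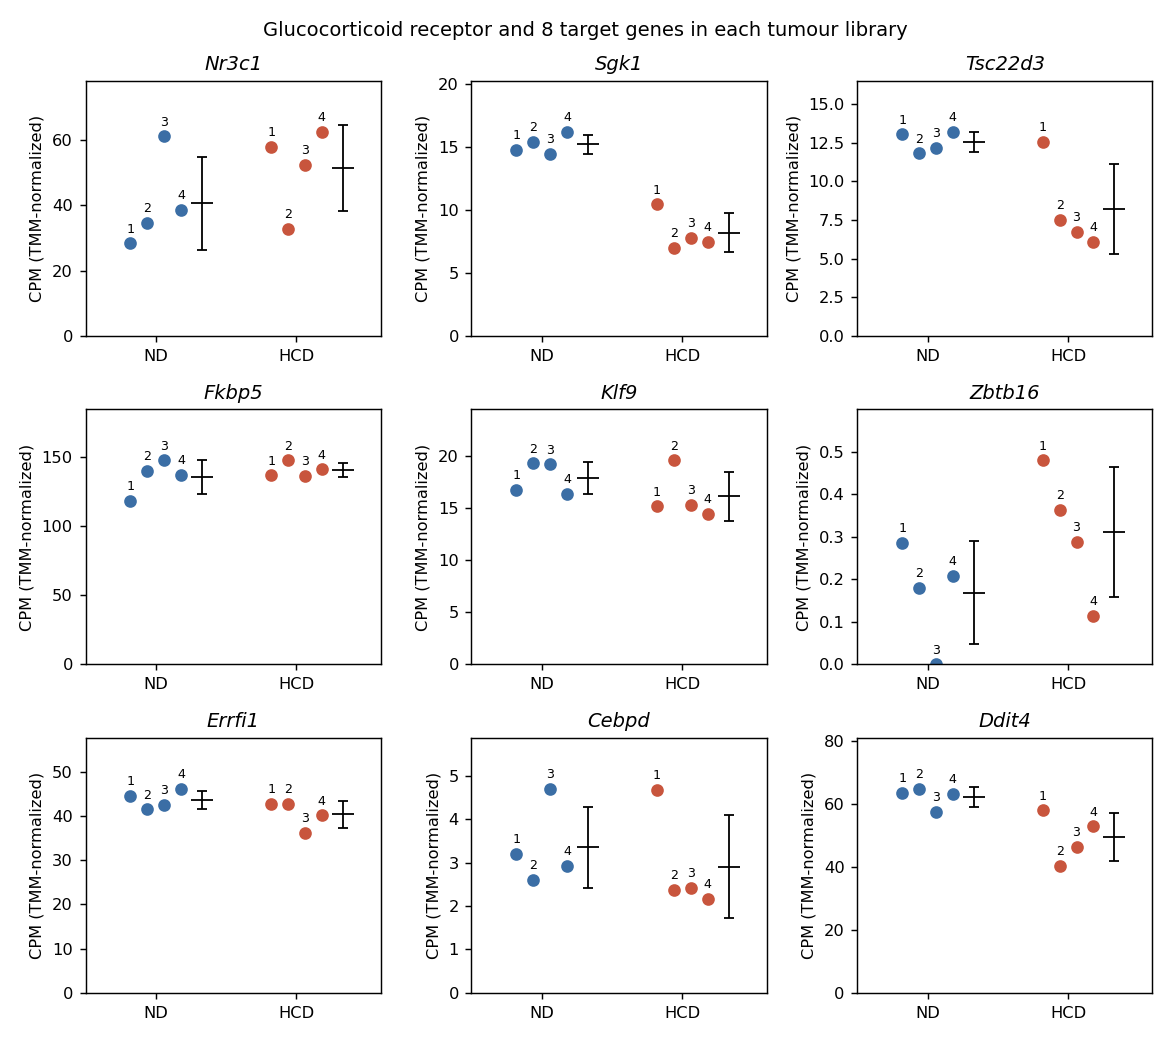
Level of each of the 9 genes in every library (vertical axis, CPM after TMM normalization; numbers are the libraries of each diet group; black bars are mean ± SD). Sgk1 lies at 14.5 to 16.2 CPM in ND and 6.97 to 10.4 CPM in HCD, while Fkbp5 and Errfi1 overlap between diets and HCD 1 sits with the ND libraries for Tsc22d3.

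Nr3c1, the receptor itself (ENSMUSG00000024431, chromosome 18, 39410545 to 39519421, minus strand, mm10), was present in all tumours and varied more between libraries than most of its targets. It was at 28.4, 34.5, 61.2 and 38.5 CPM in ND 1 to ND 4. In HCD 1 to HCD 4 it was at 58.0, 32.8, 52.4 and 62.5 CPM. ND 3 stood with the higher HCD libraries and HCD 2 with the lower ND libraries, so the groups overlapped widely. The means were 40.7 ± 14.3 CPM and 51.5 ± 13.1 CPM, a log2 fold change of 0.34 (SE 0.248). That value was 0.61 without ND 3, 0.20 without ND 1 and 0.86 with the term for ND 2, ND 3 and ND 4, in each case with the threshold missed (edgeR adjusted p = 0.247, 0.78 and 0.446). Related steroid receptors were near or at 0: the mineralocorticoid receptor gene Nr3c2 at 0 to 0.0339 FPKM, and the progesterone receptor gene Pgr listed at 0 in all 8 libraries, against 1.68 to 3.71 FPKM for Nr3c1. FPKM divide the count by gene length and so allow genes to be compared with each other.

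Sgk1 (ENSMUSG00000019970, chromosome 10, 21882184 to 21999903, plus strand) was at 14.8, 15.4, 14.5 and 16.2 CPM in ND 1 to ND 4. In HCD 1 to HCD 4 it was at 10.4, 6.97, 7.79 and 7.49 CPM. The ND libraries lay close together, and HCD 1 was the highest of the HCD libraries while still below every ND library. The means were 15.2 ± 0.759 CPM and 8.17 ± 1.55 CPM, from counts of 233 to 258 per library in ND and 115 to 174 in HCD. The log2 fold change was -0.89 (SE 0.141), and its adjusted p of 0.0459 in edgeR is the value that chose the gene. The log2 fold change was -0.85 (SE 0.218) with the term for ND 2, ND 3 and ND 4, a contrast that rests on ND 1 with that lone library assumed to vary like the rest. The adjusted p passed 0.05 again with DESeq2 (1.49e-05) and limma-voom (0.0481), and missed it in edgeR without any 1 of the 8 libraries (0.0518 without HCD 1 to 0.145 without HCD 4), with replicate number as a block (0.202) and with the term (0.339). The log2 fold change ran from -1.04 without HCD 1 to -0.82 without HCD 2.

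Tsc22d3, which encodes the anti-inflammatory leucine zipper protein GILZ (ENSMUSG00000031431, chromosome X, 140539528 to 140600659, minus strand), was at 13.0, 11.8, 12.2 and 13.2 CPM in ND 1 to ND 4. In HCD 1 to HCD 4 it was at 12.5, 7.51, 6.75 and 6.07 CPM. HCD 1 lay inside the ND range, while HCD 2, HCD 3 and HCD 4 lay below every ND library. The means were 12.6 ± 0.668 CPM and 8.22 ± 2.94 CPM, a log2 fold change of -0.61 (SE 0.211, edgeR adjusted p = 0.225). Without HCD 1 the log2 fold change was -0.89 (SE 0.135, adjusted p = 0.105), so this library decides much of its size. Counts ran from 107 to 228.

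Ddit4, also called REDD1, an inhibitor of mTORC1 induced by glucocorticoids, hypoxia and stress (ENSMUSG00000020108, chromosome 10, 59949669 to 59951834, minus strand), was at 63.7, 64.9, 57.7 and 63.3 CPM in ND 1 to ND 4. In HCD 1 to HCD 4 it was at 58.0, 40.5, 46.4 and 52.9 CPM. HCD 1 was again the highest HCD library and the only one above an ND library (ND 3). The means were 62.4 ± 3.21 CPM and 49.5 ± 7.65 CPM, a log2 fold change of -0.33 (SE 0.109, edgeR adjusted p = 0.206).

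Fkbp5, a chaperone of the receptor that lowers its affinity for hormone and is induced by it (ENSMUSG00000024222, chromosome 17, 28399094 to 28517527, minus strand), was at 118, 140, 148 and 137 CPM in ND 1 to ND 4. Values in HCD 1 to HCD 4 were 137, 148, 137 and 141 CPM. HCD 2 was level with ND 3, the highest ND library, and the other HCD libraries lay inside the ND range. The log2 fold change was 0.0492 (SE 0.0761, edgeR adjusted p = 0.823), and it was -0.0118 without ND 1. With counts of 1980 to 2487 it was the most deeply counted of the 9 genes, and its SE was the smallest among them.

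Klf9, a transcription factor of the Krüppel-like family (ENSMUSG00000033863, chromosome 19, 23141226 to 23168134, plus strand), was at 16.8, 19.3, 19.2 and 16.4 CPM in ND 1 to ND 4. HCD 1 to HCD 4 were at 15.2, 19.6, 15.3 and 14.5 CPM. HCD 2 was above every ND library, and the other 3 HCD libraries were below them all. The log2 fold change was -0.15 (SE 0.122, edgeR adjusted p = 0.624).

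Errfi1, which encodes the EGF receptor inhibitor MIG6 (ENSMUSG00000028967, chromosome 4, 150853919 to 150868892, plus strand), was at 44.6, 41.5, 42.4 and 46.1 CPM in ND 1 to ND 4. Values in HCD 1 to HCD 4 were 42.7, 42.7, 36.2 and 40.1 CPM. HCD 1 and HCD 2 lay inside the ND range and the other 2 below it (log2 fold change -0.11, SE 0.0808, edgeR adjusted p = 0.583).

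Cebpd, a transcription factor induced early by glucocorticoids and by acute-phase signals (ENSMUSG00000071637, chromosome 16, 15887286 to 15891031, plus strand), was at 3.20, 2.59, 4.69 and 2.91 CPM in ND 1 to ND 4. HCD 1 to HCD 4 were at 4.68, 2.36, 2.42 and 2.16 CPM. ND 3 and HCD 1 were high at almost the same level, and the HCD libraries other than HCD 1 were below every ND library. The log2 fold change was -0.21 (SE 0.302, edgeR adjusted p = 0.809), with values from -0.54 without HCD 1 to -0.0007 without ND 3. Its exons overlap those of Spidr on the opposite strand. Whether counting used strand is not stated in the sources used here, and reads of both genes may be mixed.

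Zbtb16, which encodes the zinc finger repressor PLZF (ENSMUSG00000066687, chromosome 9, 48654297 to 48836222, minus strand), had 5, 3, 0 and 3 counts in ND 1 to ND 4. In HCD 1 to HCD 4 it had 8, 6, 5 and 2 counts. It was near the detection limit in both groups and was not tested. The 0 in ND 3 allows a level of up to 0.185 CPM (3 counts, counting error only). In HCD 1, its highest library, it was at 0.48 CPM.

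Per length, Ddit4 was the highest of the 9 genes, at 24.5 to 37.8 FPKM over the 8 libraries, and Fkbp5 followed at 10.5 to 13.5 FPKM. Errfi1 (5.94 to 7.39 FPKM) and Klf9 (4.41 to 6.11 FPKM) came next and overlapped in range. Nr3c1 (1.68 to 3.71 FPKM) and Cebpd (1.82 to 4.10 FPKM) overlapped, as did Tsc22d3 (0.75 to 1.62 FPKM) and Sgk1 (0.694 to 1.56 FPKM). Zbtb16 was last at 0 to 0.0972 FPKM. Every other pair of neighbours in this order had separate ranges. The pair of targets with the lowest levels that could be tested, Sgk1 and Tsc22d3, also had the most negative log2 fold changes, and the target with the next most negative one, Ddit4, had the highest level. The lengths behind the FPKM ran from 1180 bases for Cebpd to 16741 bases for Nr3c1, so a long annotated gene with several forms has a low FPKM for its count.

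**Figure D3:**
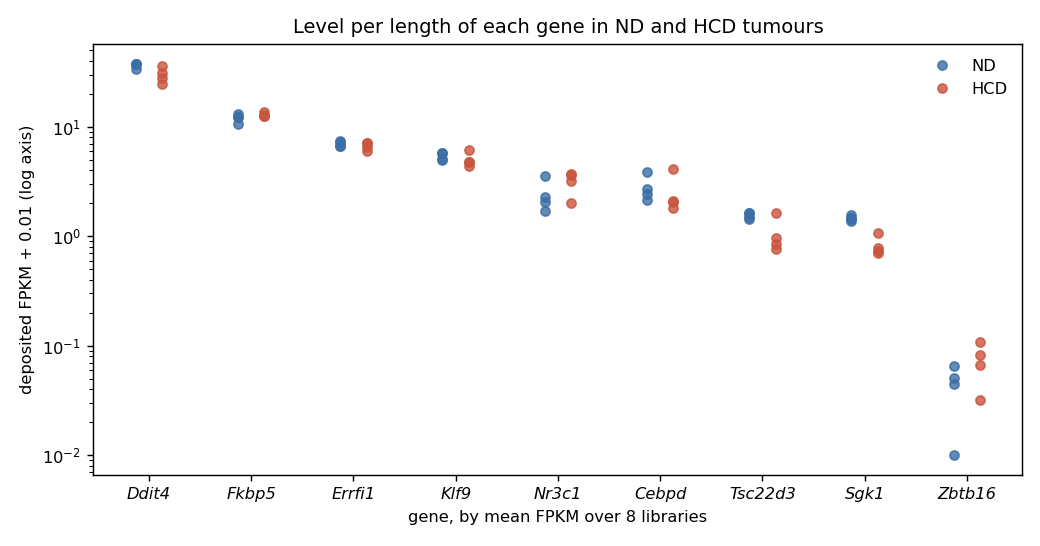
Deposited FPKM of each gene in each library, with 0.01 added so that a 0 can be drawn on the log axis; genes are ordered by their mean over 8 libraries, with ND in blue and HCD in red. Ddit4 and Fkbp5 stand above the rest, Sgk1 separates by diet, and Zbtb16 lies at 0 to 0.0972 FPKM.

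HCD 1 held the highest HCD value for 6 of the 9 genes (Sgk1, Tsc22d3, Zbtb16, Errfi1, Cebpd and Ddit4) and the lowest for 0. To describe how the genes varied apart from diet, each group's mean log2 CPM was subtracted and the 8 tested genes were correlated over the 8 libraries, which share depth and tissue makeup. Over the 28 pairs the median Pearson's r was 0.196, 18 were positive and 6 were above 0.5. Sgk1 and Tsc22d3 had r = 0.856, Sgk1 and Ddit4 0.791, Tsc22d3 and Cebpd 0.775, and Klf9 and Ddit4 -0.723. Both values of Tsc22d3 rested on HCD 1: without that library Sgk1 and Tsc22d3 had r = -0.231 and Tsc22d3 and Cebpd 0.071. Sgk1 and Ddit4 had 0.589 and Klf9 and Ddit4 -0.801 without it. Sgk1 and Cebpd had r = 0.633 with HCD 1 and -0.514 without. Tsc22d3 and Ddit4 had 0.48 with it and -0.722 without, and Tsc22d3 and Errfi1 0.555 in both cases. The median and counts over the 28 pairs include HCD 1, so no general lean towards positive values is read from them. Fkbp5 and Klf9 had r = 0.575 with HCD 1 and 0.559 without. Nr3c1 had r = 0.273 with Sgk1, 0.01 with Tsc22d3 and 0.394 with Fkbp5. Without HCD 1 these values were 0.17, -0.679 and 0.452. Each had opposite signs within the diet groups. In ND alone they were -0.323, -0.376 and 0.833, and in HCD alone 0.53, 0.086 and -0.797. No steady relation of the receptor gene with these targets is read from them.

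**Figure D4:**
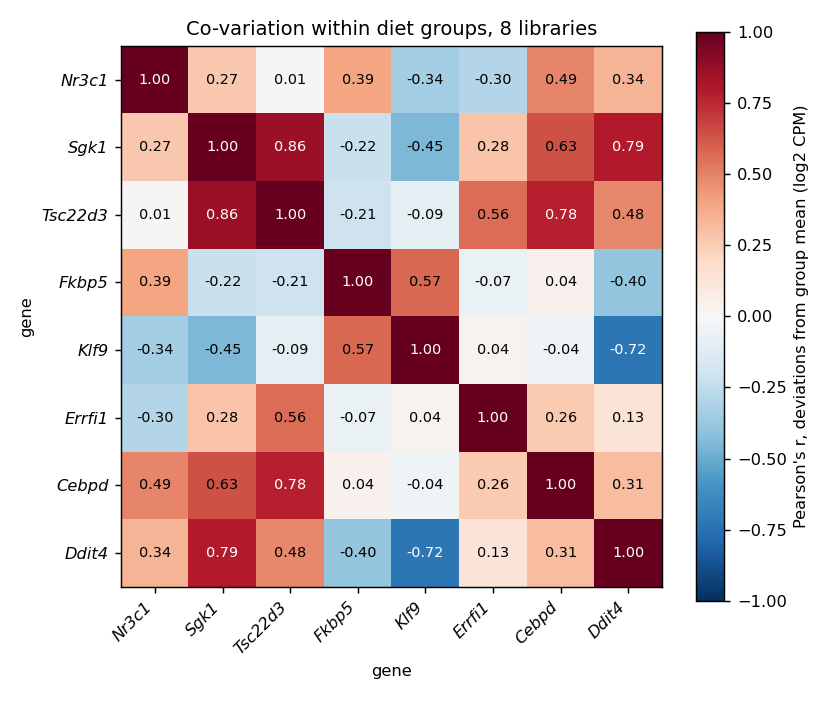
Pearson's r between genes over 8 libraries after subtracting each diet group's mean log2 CPM (red positive, blue negative). Sgk1 has its deepest red cells with Tsc22d3 (0.856) and Ddit4 (0.791), and the first of these values is -0.231 without HCD 1.

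The genes whose log2 CPM followed Sgk1 most closely over all 8 libraries, among 12443 other tested genes with a mean of at least 1 CPM, were Ap4m1 (Pearson's r = 0.982), Tbce (0.975), Fads3 (0.974), Mob3a (0.973) and Ppp2cb (0.968). Ap4m1 is a subunit of an adaptor complex of vesicle transport, Tbce a tubulin folding factor, Fads3 a fatty acid desaturase family gene, and Ppp2cb a catalytic subunit of protein phosphatase 2A. Fads3 was at 105 ± 10.4 CPM in ND against 74.7 ± 8.95 CPM in HCD (log2 fold change -0.49, SE 0.101, edgeR adjusted p = 0.0788). For Tsc22d3 they were Cdip1 (r = 0.972), Gatd1 (0.964), Mrnip (0.957), Glg1 (0.955) and Megf10 (0.954). Of the 9 genes studied, none appears in either group of nearest genes. Each group is only 5 of 12443 genes, so nothing is read from that absence. Over the same 8 libraries, diet difference included, Sgk1 had r from -0.338 with Fkbp5 to 0.902 with Tsc22d3, with Ddit4 at 0.891. Tsc22d3 had r from -0.345 with Fkbp5 to that same 0.902, with Ddit4 at 0.781.

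The other glucocorticoid-induced genes were lower in HCD in 18 and higher in 10 of the 28 tested (of 35 in the list), with a median log2 fold change of -0.11. None passed over all genes in edgeR, and 5 lower and 0 higher had an unadjusted p under 0.05, where 7.49% of all genes were lower and 7.21% higher. DESeq2 called Per1, Nfkbia and Mt2 of them, in a test that called 1.98% of all genes lower. Per1, a clock gene with a classical response element, was at 90.3, 86.1, 101.6 and 94.3 CPM in ND 1 to ND 4. Values in HCD 1 to HCD 4 were 78.7, 70.3, 69.9 and 69.3 CPM. HCD 1 was again the highest HCD library, and the groups did not overlap (log2 fold change -0.37, SE 0.0761, edgeR adjusted p = 0.0788). Nfkbia, the inhibitor of NF-kappaB, had means of 28.9 ± 2.64 and 20.5 ± 2.8 CPM without overlap (adjusted p = 0.11, log2 fold change -0.50). Mt2, a metallothionein, had means of 326 ± 45.4 and 232 ± 45.4 CPM with overlap (adjusted p = 0.158, log2 fold change -0.49).

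Genes that handle the ligand, fold the receptor or act with it on DNA were lower in 10 and higher in 6 of 16 tested. Their median log2 fold change was -0.0256, and 0 were called in edgeR, DESeq2 or limma-voom. In edgeR 1 in each direction had an unadjusted p under 0.05, where 7.49% of all genes were lower and 7.21% higher. Stip1, a co-chaperone that links HSP70 and HSP90, was at 351 ± 12.6 CPM in ND against 384 ± 14.0 CPM in HCD (edgeR adjusted p = 0.323, log2 fold change 0.13). Hsd11b1, the enzyme that regenerates active corticosterone, was at 0.0448 to 0.128 FPKM, and Hsd11b2, which inactivates it, at 0 to 0.0327 FPKM. Both were therefore near the detection limit in these tumours.

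Genes that glucocorticoids repress were higher in 6 and lower in 5 of 11 tested, with a median log2 fold change of 0.0249 and 0 called in edgeR. Vcam1, an adhesion molecule of activated endothelium, was the 1 gene with an unadjusted p under 0.05 in edgeR. Over all genes 7.21% were higher at that threshold. Vcam1 was at 4.83 ± 2.11 CPM in ND against 9.68 ± 2.00 CPM in HCD (edgeR adjusted p = 0.164, DESeq2 0.0267, log2 fold change 1.00). The groups overlapped at ND 1 and HCD 4. The term for ND 2, ND 3 and ND 4 compares HCD with ND 1 alone, and with it the log2 fold change of Vcam1 was 0.35. Vcam1 is also an endothelial gene, and the 7 endothelial markers had summed levels of 68.9 to 90.1 CPM in ND against 92.1 to 102 CPM in HCD. Their part in this difference was not tested.

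In the list of the SGK family, its activators and targets and the stress genes induced beside SGK1, such as those of osmotic stress, 11 were lower and 9 higher of 20 tested (median log2 fold change -0.0818), and 1 gene passed in edgeR. That gene was Ndrg1, whose protein is phosphorylated by SGK1 and whose transcript is induced by hypoxia. It was at 380, 336, 346 and 355 CPM in ND 1 to ND 4 and at 229, 260, 233 and 233 CPM in HCD 1 to HCD 4. It fell without overlap, with a log2 fold change of -0.57 (SE 0.0658, edgeR adjusted p = 0.0225). That call was lost without HCD 1, HCD 3, HCD 4, ND 3 or ND 4 (adjusted p = 0.0504 to 0.0926), with the replicate block (0.166) and with the term for ND 2, ND 3 and ND 4 (0.0767), at log2 fold changes of -0.67 to -0.55. The Ndrg1 call was already known when the list was made, and 0.114% of all genes were called lower. Sgk3, the relative of Sgk1, was at 1.39 ± 0.169 FPKM in ND and 1.31 ± 0.136 FPKM in HCD, close to the Sgk1 level of 1.46 ± 0.0769 FPKM in ND and above its 0.811 ± 0.165 FPKM in HCD. Sgk2 was at 0.0571 to 0.377 FPKM. Nedd4l, a ubiquitin ligase that SGK1 inhibits, was at 167 ± 7.99 and 197 ± 16.4 CPM without overlap (adjusted p = 0.182, log2 fold change 0.24), and Slc6a6, a taurine transporter, at 1065 ± 80.8 and 898.7 ± 51.8 CPM (-0.25, adjusted p = 0.164).

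Among family relatives of the 9 genes, 12 were lower and 7 higher of 19 tested (median log2 fold change -0.0485), with 0 called in edgeR; 5 lower and 2 higher had an unadjusted p under 0.05, beside 7.49% lower and 7.21% higher over all genes. All 5 lower ones are Krüppel-like factors, which were all the Klf genes in the list, a grouping made after the values were seen. Klf4 was at 9.22 ± 3.02 CPM in ND against 4.81 ± 1.22 CPM in HCD (log2 fold change -0.94, SE 0.268, edgeR adjusted p = 0.156). ND 1, at 5.26 CPM, lay within the HCD range. Against ND 1 alone, as the term for ND 2, ND 3 and ND 4 compares, the Klf4 value was -0.13. Klf6 was at 144 ± 17.9 and 105 ± 12.3 CPM without overlap (-0.46, SE 0.106, adjusted p = 0.104). Klf10, Klf13 and Klf15 had log2 fold changes of -0.33, -0.27 and -0.34. DESeq2 called Klf4 and Klf6 (adjusted p = 0.0285 and 0.0071), in a test that called 1.98% of all genes lower.

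Around DDIT4, genes of mTORC1 control were higher in 7 and lower in 3 of 10 tested, with 0 called in edgeR, DESeq2 or limma-voom. In edgeR 1 higher and 2 lower had an unadjusted p under 0.05, beside 7.21% higher and 7.49% lower over all genes. Deptor, an mTOR inhibitor, was at 78.6 ± 8.13 CPM in ND against 99.5 ± 17.3 CPM in HCD (edgeR adjusted p = 0.251). The stress-induced inhibitor gene Sesn2 was at 68.3 ± 7.68 and 54.8 ± 4.72 CPM (edgeR adjusted p = 0.189). Its relative Sesn3 was at 14.27 ± 1.025 and 11.79 ± 0.5725 CPM without overlap (edgeR adjusted p = 0.261). Around ERRFI1, genes of the EGF receptor family were lower in 4 and higher in 3 of 7 tested, again with 0 called by the 3 tests. In edgeR 1 gene, which was lower, had an unadjusted p under 0.05, beside 7.49% lower over all genes. Hbegf, a ligand of the EGF receptor, was at 9.91 ± 1.06 and 7.07 ± 0.614 CPM without overlap (log2 fold change -0.49, edgeR adjusted p = 0.142), while Egfr itself was at most at 1.04 CPM.

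**Figure D5:**
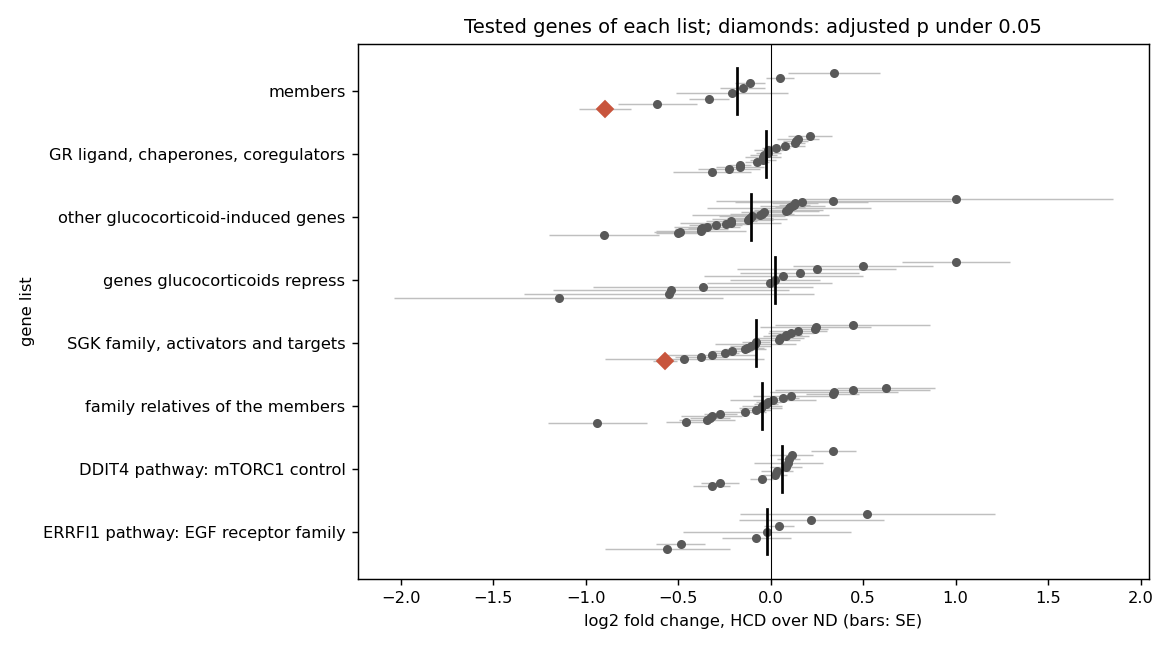
Log2 fold change, HCD over ND, with its SE, of each tested gene in the set and in 7 lists around it; black lines are medians and diamonds are genes with an edgeR adjusted p under 0.05. The diamonds are Sgk1 and Ndrg1, and the medians of the lists lie between -0.11 and 0.0593.

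Transcripts of other cells in the tumour moved between libraries. The 11 skeletal muscle markers had summed levels of 49.9, 81.1, 14.4 and 4.58 CPM in ND 1 to ND 4 against 3.27 to 7.04 CPM in the HCD libraries, with 0 to 2 markers at 0 in ND and 1 to 6 in HCD. Sgk1 was at 14.8, 15.4, 14.5 and 16.2 CPM in the same ND libraries, and only ND 4 had a muscle sum within the HCD range. The part of muscle in the difference between diets was not tested. The 6 adipocyte markers summed to 25.4 CPM in HCD 1, 8.37 CPM in HCD 3, and 0 to 1.45 CPM in the other 6 libraries, led by Cfd at 18.1 CPM in HCD 1. HCD 1 was also the HCD library with the highest Sgk1, Tsc22d3, Cebpd and Ddit4, and the part of fat tissue in those values was not tested. The 10 macrophage markers summed to 276 to 458 CPM in ND against 401 to 527 CPM in HCD, and the mannose receptor gene Mrc1 was at 9.05 ± 1.96 and 20.3 ± 4.37 CPM (edgeR adjusted p = 0.0506). The 8 fibroblast markers summed to 52.3 to 267 CPM in ND against 67.7 to 279 CPM in HCD. T and NK cell markers summed to 8.32 to 23.3 CPM in ND against 13.1 to 21.0 CPM in HCD, and neutrophil markers to at most 5.19 CPM. Of the 6 keratinocyte markers 4 or 5 were at 0 in every library, among them Krt5.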

How the data were processed

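RNA-seq of 8 tumours was deposited as 1 file per library. Per the file headers, each holds a column of counts (whole numbers per Ensembl gene, not normalized) and a column of FPKM computed by the authors. Tools named in the submitters' processing notes, without role or order, are CASAVA 1.8, TopHat2 2.0.9 (an aligner), HTSeq (a read counter), and edgeR; the build named is mm10. Annotation and strand setting are not stated in the sources used here. Gene names and positions came from GENCODE M21 (GRCm38), which matched 34267 of 34745 identifiers, and promoter sequences from RefSeq (GRCm38.p6).

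Counts were tested with edgeR 4.0.16 (limma 3.58.1, R 4.3.3), quasi-likelihood F-test, TMM factors, diet as the only term and Benjamini-Hochberg adjustment. A filter on low counts (filterByExpr) asked for the CPM equivalent of 10 counts in at least 4 libraries, and for 15 counts in total. It left 13186 genes, which hold at least 99.885% of each library's counts. Each SE was taken as the size of the log2 fold change divided by the square root of F. Correlations used log2 CPM with a prior count of 2. Alternatives were DESeq2 1.42.0, limma-voom, other scaling factors, no filter, log2(FPKM + 0.1) and log2(FPKM + 1) with limma, a replicate block, leaving out each library, and a term for ND 2, ND 3 and ND 4 that was chosen after earlier results were seen. Tested on simulated counts of the HCD against ND comparison (13040 genes), the fit recovered 34 of 67 genes at a 1.5-fold change, 49 of 67 at 2-fold and 62 of 66 at 4-fold, and made 5 false calls.

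The members, lists and rules were chosen with earlier results of these data known. Named genes are the 9 members, the 3 genes of smallest p in each of 7 lists plus called ones, the most abundant and smallest-p marker of each of 9 cell types, and the 5 genes most like Sgk1 and Tsc22d3; Hsd11b1, Hsd11b2, Nr3c2, Pgr, Sgk2, Sgk3, Klf10, Klf15, Krt5 and Acnat2 were added after values were seen, and some items the rule would name are not reported here. Libraries of a group differed by 14.5 to 37.6 times what counting noise gives (chi-square over its degrees of freedom). Each was counted as 1 sample, but a spread of this size does not show that libraries came from separate mice. Besides Cebpd, exons of Mt2, Ndrg1, Nedd4l, Slc6a6, Vcam1, Deptor, Il1b, Tgfa, Col3a1, Lck, Dsp, Nr3c2 and Krt5 overlap another annotated gene, so reads may be mixed. Acnat2 and the genes most like Sgk1 and Tsc22d3 were not checked for such overlap.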

Additional observations from a re-analysis of the deposited data

Results flagged for a closer look

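In a check of each named gene in each group of 4 libraries (106 checks), 12 had 1 library set apart by a gap that took up most of the group's range; chance flags about 1 in 20 such checks. Among the members, Cebpd was at 4.68 CPM in HCD 1 against 2.16 to 2.42 CPM in the other HCD libraries, and Klf9 at 19.6 CPM in HCD 2 against 14.5 to 15.3 CPM. Per1 was at 78.7 CPM in HCD 1 (others 69.3 to 70.3), Gatd1 at 13.7 CPM (7.69 to 8.08), Megf10 at 43.8 CPM (22.2 to 24.5) and Cd68 at 134 CPM (157 to 159), all in HCD 1. In HCD 2, Ndrg1 was at 260 CPM (229 to 233) and Sesn2 at 47.8 CPM (56.5 to 58.0). In HCD 4, Col3a1 was at 20.9 CPM (80.3 to 86.0) and Col1a2 at 18.5 CPM (77.2 to 85.5). Acta1 was at 1.33 CPM in HCD 3 (0.242 to 0.34), and Tgfa at 4.64 CPM in ND 2 (2.23 to 2.35). Gatd1 and Megf10 were named because they follow Tsc22d3, whose HCD 1 value stands apart, so their place here comes with that choice.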

How the results depend on the processing

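Depth limited Cebpd (38 to 78 counts) and Zbtb16 (0 to 8 counts) most. Of 136 values of the 8 tested members over 17 alternative settings, 123 kept direction and side of the threshold, 12 were Sgk1 values that missed it, and 1 turned sign (Fkbp5, -0.0118 without ND 1, to 0.0918 without ND 3). Why the calls moved was not tested. Called genes, 15 lower and 9 higher, became 241 and 190 with DESeq2, 55 and 38 without filter, 6 and 18 with log2(FPKM + 1), 0 and 0 with log2(FPKM + 0.1), 1 and 4 under the term for ND 2, ND 3 and ND 4, and 0 to 6 lower and 0 to 6 higher when a library was left out. With the replicate block 0 genes were called in either direction (edgeR, 1634 at an unadjusted p under 0.05). Members called, 1, became 0 with either FPKM scale, the block, the term, or any library left out. Pathway-list genes called lower, 1, became 6 with DESeq2, 0 with log2(FPKM + 0.1), the block and the term, and 0 to 1 with a library left out; those called higher, 0, became 1 with DESeq2. Same-numbered libraries did not pair: their deviations correlated at 0.0249, -0.0113, -0.0676 and 0.1069, and ND 1 correlated best with HCD 3 (0.2008). Other log2 fold changes turned sign, none of them past the threshold. With a library left out they ran from -1.5635 to 0.1955 for Il1b (0.1509 with limma-voom), from -0.0804 to 0.054 for Dct, from -0.0254 to 0.1102 for Cd68, from -0.3446 to 0.0038 for Lck, from -0.0997 to 0.6506 for Dsp and from -0.2435 to 0.4966 for Csf3r. Dct was at 0.0145 on both FPKM scales and 0.0326 with the term. Also with the term were Egfr -0.2484, Cd68 -0.048, Col3a1 -0.3184, Col1a2 -0.2606, Dsp -0.4246 and Csf3r -0.1391.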
